A study of Mus musculus with 12 samples.

Results

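Collagens, families of metalloproteases and their inhibitors were followed through 4 culture conditions of mouse liver cells. The set held 107 of the 18194 genes measured: 42 collagen chains, 18 matrix metalloproteases (MMPs), 4 tissue inhibitors of metalloproteases (TIMPs), 28 ADAMs and 15 ADAMTS proteases. Genes were chosen by symbol, as Col, a number, a and a number, or as Mmp, Timp, Adam or Adamts followed by a number, a rule that uses no measured value, though it was proposed with earlier results of these data known. Each gene was read from 1 probe set, the one with the highest mean over the 12 arrays. A further probe set existed for 57 of the 107 genes, 198 probe sets in all.

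The cells were BNL CL.2, a mouse cell line of liver origin, profiled on Affymetrix expression arrays with 3 arrays in each of 4 groups after 24 h. In the control group, called alone, the culture insert held more BNL CL.2 cells and no iron was added. The FAC group was the same culture with 100 µM ferric ammonium citrate, an iron salt that cells take up. The RAW group had macrophages of the mouse line RAW 264.7 in its insert and no added iron, and the RAW_FAC group had the macrophages and 100 µM of the iron salt together. All groups grew in DMEM with fetal bovine serum, and the labels name cell lines and no animal. The RAW and RAW_FAC titles name both lines, and only BNL CL.2 RNA is named as the material on the arrays. The comparisons ask how these genes respond to iron, to macrophages sharing the medium, and to both.

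Collagens are built of 3 chains wound into a triple helix. Fibrillar collagens form the fibres of scar and connective tissue, type IV collagens form the mesh of basement membranes, and the remaining types link, anchor or coat those networks. MMPs are zinc proteases that cleave matrix proteins once a propeptide is removed, and TIMPs block them by binding the active site. Many but not all ADAMs are membrane proteases that release growth factors, cytokines and receptors from the cell surface. Adam17 and Adam10 are the main sheddases. ADAMTS proteases are secreted and cut proteoglycans and procollagens. In injured liver, matrix is made mostly by stellate cells and removed in part by MMPs that macrophages and epithelial cells release.

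Most of the set lay low on these arrays. Of the 107 genes, 19 had a mean at or above 6.82, the median of the 18194 gene means on the log2 scale, and 88 lay below it. The 19 were Adam8, Adam9, Adam10, Adam15, Adam17, Mmp3, Mmp10, Mmp11, Mmp13, Mmp14, Timp1, Timp2, Timp3, Col4a1, Col4a2, Col7a1, Col18a1, Col25a1 and Col27a1. No ADAMTS gene and 1 of the 11 fibrillar collagens was among them. Probe sets bind with different strength, so these positions are not RNA amounts.

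The labelled cell type was checked on marker lists. Of 8 hepatocyte markers measured, 3 lay at or above that median: Krt8 (14.20 to 14.34 over the 12 arrays), Krt18 (13.99 to 14.18) and Hnf4a (10.22 to 10.75), while Alb, the albumin gene that defines a hepatocyte, lay at 5.02 to 5.38. Of 8 mesenchymal or stellate markers, 3 lay at or above the median: Vim (14.04 to 14.27), S100a4 (13.71 to 13.99) and Cdh2 (11.81 to 12.12). The stellate marker Pdgfrb lay at 4.64 to 4.88, and Acta2, Des, Tagln and Lrat were also below the median. Of 4 epithelial markers, 3 lay at or above it: Krt19 (13.08 to 13.54), Cdh1 (12.63 to 12.80) and Krt7 (7.90 to 8.57). Epcam lay below. The macrophage markers Ptprc (3.32 to 3.72) and Itgam (3.49 to 3.98) were low in all 12 arrays. Of the 14 macrophage markers, 3 lay at or above the median in each group, Cd14, Laptm5 and Cd53. Over the 12 arrays Cd14 lay at 11.90 to 12.19 and Cd53 at 7.12 to 7.88. Laptm5 lay at 6.75 to 6.96 in alone and 6.90 to 6.93 in RAW. The summed linear signal of the 14 ran from 4632 to 5145 in alone, 4615 to 5238 in FAC, 4598 to 4877 in RAW and 4928 to 5405 in RAW_FAC. Cd14 made up most of each sum, with or without macrophages. The mean log2 signal of the 14 per array ran from 5.72 to 5.77 in alone and 5.73 to 5.81 in FAC. It ran from 5.75 to 5.81 in RAW and 5.78 to 5.79 in RAW_FAC. Replicate 3 of RAW_FAC stood slightly apart, with a median correlation of 0.9967 with the other arrays against 0.9974 to 0.9980 for the rest, and was the highest of the 12 arrays for 13 members and for 16.0% of all genes.

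No gene of the set passed the test in any comparison when the 4 groups were fitted without regard to replicate number. This was limma's moderated test over all 12 arrays, two-sided, with Benjamini-Hochberg adjustment over 18194 genes and a threshold of 0.05. Among all genes, 0% were called in either direction in the 5 comparisons of 2 groups and in the interaction. Averaged over both macrophage conditions, iron had 0.0055% of all genes lower and 0% higher, and averaged over both iron conditions, macrophages had 0.011% higher and 0% lower. At an unadjusted p under 0.05 the members numbered 4 for FAC against alone (3.03% of all genes passed this), 9 for RAW against alone (3.81%), 5 for RAW_FAC against RAW (5.71%), 7 for RAW_FAC against FAC (3.15%) and 6 for RAW_FAC against alone (4.88%). The counts were 4 for the average iron difference (6.51%), 5 for the average macrophage difference (3.94%) and 7 for the interaction (2.97%).

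Arrays with the same replicate number varied together, so the number was also entered as a block, which compares arrays within a number. With the block 1 member passed, Adam12, and it was lower in each comparison in which it was called. It passed in RAW_FAC against RAW, where 0.0165% of all genes were called lower and 0.0605% higher, in RAW_FAC against alone (0.0605% lower, 0.143% higher) and in the average iron difference (0.154% lower, 0.638% higher). In FAC against alone 0 members passed with the block, against 0.022% of all genes higher and 0.011% lower. In RAW against alone, RAW_FAC against FAC and the interaction 0 members and 0% of all genes passed with it, and the average macrophage difference had 0 members against 0.055% of all genes higher and 0% lower. At an unadjusted p under 0.05 with the block, 8 members passed in FAC against alone (6.57% of all genes), 15 in RAW against alone (6.13%), 13 in RAW_FAC against FAC (5.61%), 10 in RAW_FAC against RAW (11.2%) and 11 in RAW_FAC against alone (10.1%). The counts were 7 for the average iron difference (12.3%), 9 for the average macrophage difference (7%) and 9 for the interaction (4.34%). SE values beside differences are from the fit with the block unless another is named.

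Groups whose 3 arrays all lay above or all below the 3 of the other were counted as well. In FAC against alone 3 members were apart and higher (3.74% of all genes), Adam7, Col8a2 and Timp4, and 6 apart and lower (3.82%), among them Timp1 and Adamts6. In RAW against alone 11 were apart and higher (5.16%), 7 of them collagens, Col4a5, Col4a6, Col7a1, Col8a2, Col13a1, Col14a1 and Col19a1, and 1 lower (3.61%), Col22a1. In RAW_FAC against RAW 4 were apart and higher (4.48%), Adam7, Adamts10, Col9a2 and Timp3, and 7 lower (5.27%), Adam12 among them. In RAW_FAC against FAC 7 were apart and higher (3.63%) and 6 lower (3.02%), and in RAW_FAC against alone 4 were apart and higher (4.67%) and 5 lower (4.36%). Most of these separations were narrow: the 11 in RAW against alone had differences of 0.07 to 0.31, on genes that with 1 exception, Col7a1, lay below the median of genes. Over the whole array 938 genes were apart and higher in that comparison, and 188 of them lay at or above that median.

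Adam12 encodes a membrane metalloprotease that cleaves insulin-like growth factor binding proteins and sheds ligands of the epidermal growth factor receptor, and in liver it is known from activated stellate cells. In the alone group its log2 signal was 6.47, 6.46 and 6.06 on replicates 1, 2 and 3, and in FAC it was 5.87, 6.11 and 5.79. In RAW it was 6.63, 6.46 and 6.21, and in RAW_FAC 5.83, 5.86 and 5.65. Each array with iron lay below the array of the same number without iron, in 6 of 6 pairs, and RAW_FAC did not overlap with RAW or with alone. Without macrophages the groups overlapped, since replicate 3 of alone (6.06) lay below replicate 2 of FAC (6.11). In bulk RNA, less Adam12 RNA per cell and fewer cells that make it cannot be told apart.

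**Figure D1:**
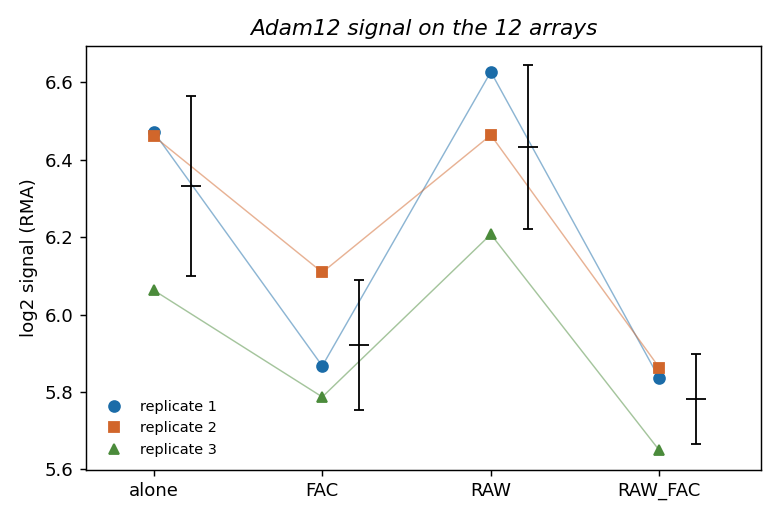
Log2 RMA signal of Adam12 (vertical axis) on the 12 arrays, by group (horizontal axis). Symbols and thin lines join arrays of the same replicate number, and the black bars are the group mean and SD of 3 arrays. Each number's line goes down from alone to FAC and from RAW to RAW_FAC, and replicate 3 is the lowest of its group in all 4 groups.

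The group means of Adam12 were 6.33 ± 0.23 (SD, n = 3) in alone, 5.92 ± 0.17 in FAC, 6.43 ± 0.21 in RAW and 5.78 ± 0.12 in RAW_FAC. With macrophages present, Adam12 fell by 0.65 ± 0.08 (SE) on the log2 scale with iron, a 1.57-fold difference, and the limma fit with the block gave an adjusted p of 0.0151. RAW_FAC against alone gave a difference of -0.55 ± 0.08 with an adjusted p of 0.0321. Averaged over both macrophage conditions, iron gave -0.53 ± 0.05 (adjusted p = 0.00307, 1.44-fold lower). The corresponding adjusted p values without the block were 0.669, 0.814 and 0.233, at the same differences. Iron alone gave -0.41 ± 0.08, which did not pass (adjusted p = 0.177 with the block, 1.00 without). The iron difference was not shown to differ with and without macrophages: the interaction was -0.24 and was not called.

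Macrophages without iron left Adam12 at a difference of 0.10, and the average macrophage difference was -0.02. The same-number differences between FAC and alone were -0.60, -0.35 and -0.28, and those between RAW_FAC and RAW -0.79, -0.60 and -0.56. A second Adam12 probe set, with a mean of 3.73 near the low end of the array, gave -0.25 for FAC against alone, -0.17 for RAW_FAC against RAW and -0.21 on average, and was lower in 4 of 6 pairs. In the fit with the block, the RAW_FAC against RAW call was lost when any 1 array of RAW or RAW_FAC was left out (adjusted p 0.0663 to 0.127), and the RAW_FAC against alone call without any 1 array of alone or RAW_FAC or without replicate 3 of RAW (0.0534 to 0.203). The average call held without each of the 12 arrays in turn (0.00507 to 0.0172) but did not pass when same-number arrays were first averaged over the macrophage conditions, leaving 3 pairs (adjusted p = 0.0841).

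The remaining ADAMs did not pass. Adam8, a sheddase known from leukocytes, had signals of 8.17, 8.04 and 8.56 in alone, 8.16, 8.47 and 8.71 in FAC, 8.12, 8.10 and 8.56 in RAW, and 8.21, 8.49 and 8.92 in RAW_FAC. Replicate 3 was the highest array of all 4 groups for Adam8, and the groups overlapped. Its average iron difference was 0.23 ± 0.06 with the block (adjusted p = 0.133), above 0 in 5 of 6 pairs, against an SE of 0.14 and no call without it. In RAW_FAC against RAW it was 0.28 ± 0.08, above 0 in 3 of 3 pairs (adjusted p = 0.283 with the block). Its average macrophage difference was 0.05 ± 0.06.

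The widely expressed sheddases kept to narrow ranges. Adam10 lay between 11.99 and 12.18 over the 12 arrays, with RAW_FAC below FAC by -0.09 with no overlap, and Adam17, which releases tumour necrosis factor, between 9.49 and 9.76. The average iron differences were 0.03 ± 0.04 for Adam10, 0.09 ± 0.04 for Adam17 and 0.00 ± 0.04 for Adam15, each with the block. Adam9 was lower with iron in 6 of 6 pairs, at -0.09 ± 0.04 (adjusted p = 0.373 with the block), and its groups overlapped. Adam7, a gene best known from the epididymis, was higher with iron in 6 of 6 pairs at 0.17 ± 0.05 (adjusted p = 0.203), over a range of 4.53 to 5.02. Adam7 was 1 of 2 members with all 6 iron pairs above 0, a pattern that 4.14% of all genes showed, and Adam12 and Adam9 were 2 of 4 members with all 6 below 0 (4% of all genes).

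Among the rest, Adam1b, Adam4, Adam6a and Adam19 had differences beyond 0.2 that went 1 way in all 3 pairs of a comparison. Adam1b, read at 5.10 to 5.54, was lower in RAW_FAC than in RAW (-0.23 ± 0.07) and than in FAC (-0.23 ± 0.07), with no overlap, but its most variable probe set went the other way. Adam4 was lower in RAW_FAC than in RAW at -0.25 ± 0.07 (adjusted p = 0.241 with the block), and higher in RAW than in alone at 0.24 ± 0.07. Adam6a was higher in RAW than in alone at 0.22 ± 0.07 (adjusted p = 0.725). Adam19, a shedding protease of neuregulin, was lower in RAW_FAC than in FAC at -0.22 ± 0.09, with 3.89 on replicate 3 of RAW_FAC against 4.21 to 4.46 on the other 11 arrays, and its most variable probe set gave 0.0826. None of these passed with or without the block.

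Among the MMPs, Mmp3, Mmp10 and Mmp13 had the widest spread over the 12 arrays of all 107 genes, at 2.60, 1.95 and 1.72 on the log2 scale against a median of 0.375 over the members. Mmp3 and Mmp10 encode stromelysins, which cut proteoglycans and activate other MMPs, and Mmp13 encodes the main interstitial collagenase of rodents. All 3 lie in 1 gene cluster on chromosome 9, where RefSeq (GRCm38.p6) orders 10 genes as Mmp13, Mmp12, Mmp1b, Mmp3, Mmp1a, Mmp10, Mmp8, Mmp27, Mmp20 and Mmp7. Mmp27 is not analysed here, and the other 9 are members. For these 3 genes the 250 bases before each start site are shown from RefSeq (GRCm38.p6), with the letters matching the AP-1 motif TGANTCA in capitals.
Mmp13 (chr9:7272264-7272513, + strand): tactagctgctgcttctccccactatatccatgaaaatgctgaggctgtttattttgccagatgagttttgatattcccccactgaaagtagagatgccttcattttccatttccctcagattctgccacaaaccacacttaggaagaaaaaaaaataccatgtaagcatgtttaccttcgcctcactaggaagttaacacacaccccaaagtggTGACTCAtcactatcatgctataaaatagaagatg
Mmp3 (chr9:7445572-7445821, + strand): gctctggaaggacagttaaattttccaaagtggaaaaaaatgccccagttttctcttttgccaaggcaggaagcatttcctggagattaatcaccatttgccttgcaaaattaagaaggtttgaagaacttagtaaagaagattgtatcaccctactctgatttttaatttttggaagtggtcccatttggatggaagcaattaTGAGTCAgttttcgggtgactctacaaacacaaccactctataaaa
Mmp10 (chr9:7502092-7502341, + strand): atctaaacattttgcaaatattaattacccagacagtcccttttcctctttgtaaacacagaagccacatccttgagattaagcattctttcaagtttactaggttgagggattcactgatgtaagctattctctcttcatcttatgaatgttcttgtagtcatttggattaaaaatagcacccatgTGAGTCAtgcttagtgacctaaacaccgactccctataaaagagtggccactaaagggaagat

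Each window held 1 AP-1 match, whose first base lay 35 bases before the start site in Mmp13, 46 in Mmp3 and 63 in Mmp10, and no match to the antioxidant response element TGACNNNGC, searched on both strands. Of the 9 members of the cluster, 8 had an AP-1 match in such a window, Mmp8 being without one. Of 32851 RefSeq promoter windows of 250 bases, 6.75% held an AP-1 match and 10.2% the antioxidant motif. Over the set, 70 of 107 genes had a promoter entry, with 78 windows, of which 14.1% held an AP-1 match and 11.5% the antioxidant motif. The 11 members with an AP-1 match were Mmp1a, Mmp1b, Mmp3, Mmp7, Mmp10, Mmp12, Mmp13, Mmp20, Adam19, Adam25 and Col6a1. A match in these letters is no evidence of a bound factor, and 8 of the 11 sit in this 1 cluster.

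Mmp13 was read at 11.32, 12.42 and 11.41 in alone, 11.79, 12.42 and 11.64 in FAC, 11.38, 13.04 and 12.14 in RAW, and 11.78, 13.01 and 12.53 in RAW_FAC. Mmp10 was read at 6.71, 7.72 and 6.80 in alone, 7.24, 7.63 and 6.95 in FAC, 6.65, 8.48 and 7.22 in RAW, and 7.32, 8.60 and 7.52 in RAW_FAC. Mmp3 was read at 9.07, 10.18 and 8.96 in alone, 9.34, 9.22 and 8.54 in FAC, 9.11, 11.14 and 9.66 in RAW, and 9.40, 10.15 and 9.46 in RAW_FAC. Replicate 2 was the highest array of every group for Mmp10 and Mmp13, and of every group except FAC for Mmp3. In the 5 comparisons of 2 groups the arrays of these genes overlapped except for Mmp3 in RAW_FAC against FAC, where all 3 arrays with macrophages lay above the 3 without.

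**Figure D2:**
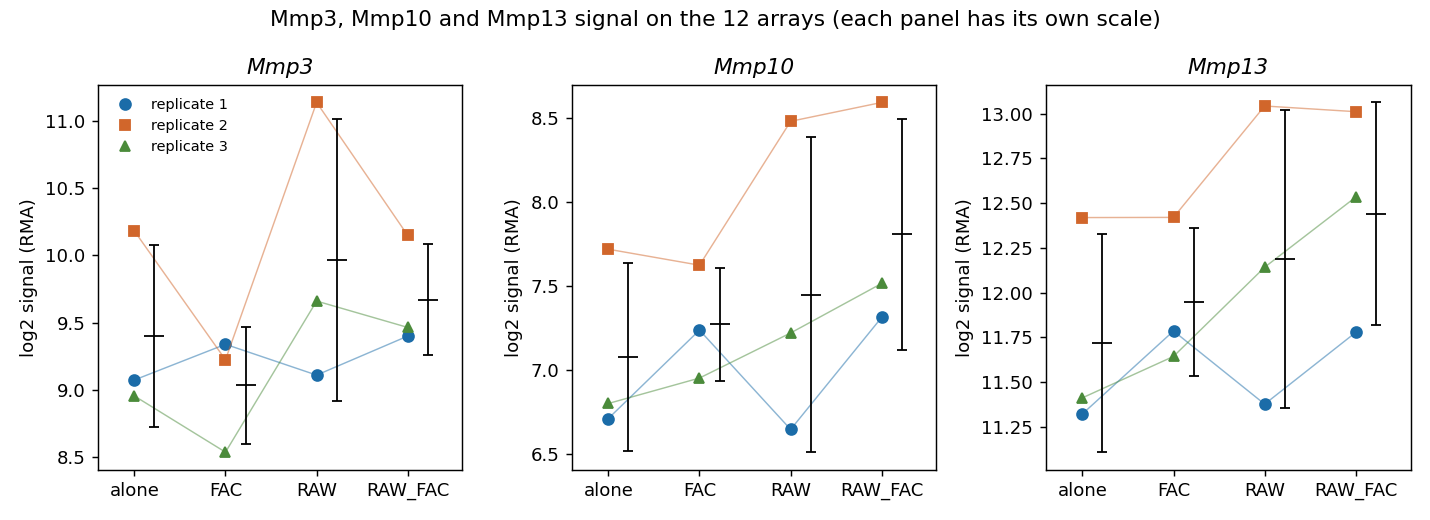
Log2 RMA signal of Mmp3, Mmp10 and Mmp13 (vertical axes, each with its own scale) on the 12 arrays by group (horizontal axis). Symbols and thin lines join arrays of the same replicate number, and black bars are the group mean and SD of 3 arrays. Replicate 2 lies highest in every group except FAC of Mmp3, and the SD bars, 0.34 to 1.05, overlap between the groups.

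Within replicate numbers, values of all 3 genes were mostly higher with macrophages, without a call. Averaged over both iron conditions the difference was 0.60 for Mmp3, with an SE of 0.32 without the block and 0.20 with it, and was above 0 in 6 of 6 pairs (adjusted p = 0.558 with the block). For Mmp13 it was 0.48 ± 0.12 (adjusted p = 0.374) and for Mmp10 0.45 ± 0.14 (adjusted p = 0.486), both with the block and above 0 in 5 of 6 pairs. The pair of replicate 1 showed almost none of it: its macrophage differences were 0.04 and 0.06 for Mmp3, 0.06 and -0.01 for Mmp13 and -0.06 and 0.08 for Mmp10, without and with iron. Replicates 2 and 3 had macrophage differences of 0.42 to 0.97 for the same 3 genes. Without replicate 2 of RAW, the RAW against alone value of Mmp3 was -0.02 in the fit without the block.

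Iron differences had both signs within the cluster. The average iron difference was 0.28 ± 0.14 for Mmp10 and 0.24 ± 0.12 for Mmp13, above 0 in 5 of 6 pairs each, and -0.33 ± 0.20 for Mmp3, above 0 in 2 of 6 (adjusted p 0.449 to 0.554 with the block). With both treatments against alone, Mmp10 differed by 0.73 ± 0.19 and Mmp13 by 0.72 ± 0.17 with the block, each above 0 in 3 of 3 pairs (adjusted p = 0.209 and 0.168). The same contrast for Mmp3 was 0.27. The 6 other members of the cluster lay at 3.16 to 5.77 on average, with average macrophage differences of -0.12 for Mmp8 to 0.14 for Mmp7, and Mmp12, the elastase typical of macrophages, was the one at 3.16. Ptprc, which marks all leukocytes, lay at 3.32 to 3.72 over the 12 arrays. Cd53 was read at 7.65, 7.64 and 7.12 in alone and 7.55, 7.88 and 7.34 in RAW. With iron it was read at 7.69, 7.25 and 7.18 in FAC and 7.70, 7.69 and 7.60 in RAW_FAC. Of 14 macrophage markers, 9 had an average macrophage difference above 0 and 5 below, beside 9787 and 8407 of all genes. In RAW against alone 4 of the 14 were higher in all 3 pairs (14.9% of all genes) and 1 lower (16.3%). In RAW_FAC against FAC 2 were higher in all 3 pairs (16.2% of all genes) and 2 lower (11.4%). Over all 6 macrophage pairs 0 were higher throughout and 0 lower. In these comparisons 0 of the 14 passed. For macrophages on average with the block, 0.055% of all genes were called higher and 0% lower. Whether macrophage RNA added to these values was not tested.

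Mmp14, the membrane-bound MMP that activates pro-MMP2, lay between 9.75 and 10.15, with the highest value on replicate 3 of RAW_FAC. Its average differences were 0.02 ± 0.06 for iron and 0.01 ± 0.06 for macrophages with the block. The gelatinases Mmp2 (4.78 to 5.19) and Mmp9 (5.69 to 6.01) lay low in all groups, with average differences of -0.04 to 0.05 for the 2 genes. Mmp7, matrilysin, was above 0 in 6 of 6 iron pairs at 0.08 ± 0.06 (adjusted p = 0.607). Mmp8, the neutrophil collagenase, had a RAW against alone difference of -0.20 ± 0.09, and Mmp19 a RAW_FAC against RAW difference of 0.21 ± 0.08, neither called. Over the 18 MMPs the median difference was 0.00 for iron and 0.04 for macrophages, beside 0.00 and 0.01 over all genes.

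None of the 4 inhibitors passed. Timp1, the inducible inhibitor of the family, lay between 10.97 and 11.38 and Timp2 between 13.00 and 13.33, and replicate 1 was the highest array of all 4 groups for both. Average differences were -0.07 ± 0.05 and -0.03 ± 0.04 for iron, and -0.05 ± 0.05 and -0.02 ± 0.04 for macrophages, for Timp1 and Timp2 with the block. Timp3, which binds to the matrix and also blocks Adam17, was read at 9.97, 10.45 and 10.24 in alone, 10.26, 10.44 and 10.29 in FAC, 9.97, 9.97 and 10.11 in RAW, and 10.24, 10.30 and 10.12 in RAW_FAC. It was lower with macrophages in 6 of 6 pairs at -0.16 ± 0.06 (adjusted p = 0.653), with the widest gap at replicate 2 without iron (-0.48). Its 4 probe sets had average macrophage differences of -0.19 to -0.07. With iron it differed by 0.16 ± 0.06, above 0 in 5 of 6 pairs (adjusted p = 0.343). RAW_FAC lay above RAW with no overlap for Timp3, and the other comparisons of 2 groups overlapped. Timp1 was lower in FAC than in alone with no overlap, at -0.15, and 0 of these passed.

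Timp3 was 1 of 2 members with all 6 macrophage pairs below 0, the other being Col3a1, while 2.8% of all genes showed this. The 3 members with all 6 macrophage pairs above 0 were Mmp3, Adamts6 and Adamts7, against 3.09% of all genes. The shares with 6 pairs in 1 direction were thus near those of the whole array. Timp4 lay at 5.22 to 5.58, with an average macrophage difference of 0.04 and an average iron difference near 0. These averages combine opposite differences. FAC (0.14) and RAW (0.19) each lay above alone with no overlap, while the pairs of RAW_FAC against RAW were 0.05, -0.23 and -0.28. Its interaction was -0.30 and was not called.

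None of the 42 collagens passed in any comparison. The fibrillar chains Col1a1, Col1a2, Col3a1 and Col5a2, which make up most of scar collagen, lay low on every array, Col1a1 at 4.45 to 4.98, Col1a2 at 5.31 to 5.53, Col3a1 at 4.04 to 4.39 and Col5a2 at 3.87 to 4.22. Col1a1 was read at 4.98, 4.64 and 4.86 in alone, 4.65, 4.57 and 4.83 in FAC, 4.47, 4.71 and 4.63 in RAW, and 4.53, 4.45 and 4.46 in RAW_FAC. All 3 RAW_FAC arrays lay below all 3 alone arrays, at a difference of -0.34 ± 0.09 (adjusted p = 0.236 with the block). A second Col1a1 probe set gave 0.02 for the same comparison.

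Col3a1, the partner of type I collagen in reticular fibres, was lower with iron in 6 of 6 pairs at -0.14 ± 0.04 (adjusted p = 0.226 with the block) and lower with macrophages in 6 of 6 at -0.09 ± 0.04 (adjusted p = 0.737). RAW_FAC, at 4.04 to 4.12, did not overlap with alone (4.25 to 4.39), FAC (4.17 to 4.25) or RAW (4.12 to 4.38), though it touched RAW at this rounding. Its second probe set, with a mean of 3.10, gave 0.06 for iron and 0.08 for macrophages. Col2a1, the cartilage collagen, was lower with iron in 6 of 6 pairs at -0.11 ± 0.06 (adjusted p = 0.482). Col1a2 differed by -0.03 ± 0.05 with iron and 0.01 ± 0.05 with macrophages, and its partner chain Col1a1 by -0.13 ± 0.07 and -0.21 ± 0.07. A difference between the 2 chains was not tested. Over the 11 fibrillar collagens the median was -0.04 for iron and 0.03 for macrophages.

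The basement membrane pair Col4a1 and Col4a2, neighbours on chromosome 8, differed more between replicate numbers than between groups. Col4a1 was read at 11.65, 11.80 and 11.82 in alone, 11.54, 11.66 and 11.81 in FAC, 11.57, 11.63 and 11.79 in RAW, and 11.50, 11.63 and 11.98 in RAW_FAC. Col4a2 was read at 9.88, 9.79 and 10.06 in alone, 9.67, 9.86 and 9.93 in FAC, 9.81, 9.72 and 10.02 in RAW, and 9.72, 9.80 and 10.45 in RAW_FAC. Replicate 3 was the highest of every group for both genes, and the value of 10.45 came from the RAW_FAC array that stood apart. Average iron differences were -0.02 ± 0.05 and 0.03 ± 0.07, and average macrophage differences -0.03 ± 0.05 and 0.06 ± 0.07, with the block. The interaction of Col4a2 was 0.23, and -0.0033 without replicate 3 of RAW_FAC. Col4a3, a minor chain, was lower in FAC than in alone by -0.19 ± 0.08 with no overlap (adjusted p = 0.708).

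Of the other collagens, Col18a1, the source of endostatin in liver basement membranes, lay at 10.32 to 10.65 and Col7a1, the anchoring fibril chain, at 8.04 to 8.36. Average differences were -0.01 ± 0.06 and 0.02 ± 0.06 for Col18a1, and -0.09 ± 0.04 and 0.09 ± 0.04 for Col7a1, for iron and macrophages. Col13a1, a transmembrane collagen, was higher in RAW (4.75 to 4.84) than in alone (4.28 to 4.68), at 0.31 ± 0.11 (adjusted p = 0.730). Col6a2, a chain of the beaded filaments of type VI, was lower in RAW than in alone in 3 of 3 pairs at -0.13 ± 0.06 (adjusted p = 0.800). Col9a1 was lower in RAW_FAC (5.95 to 6.05) than in FAC (6.09 to 6.40) at -0.22 ± 0.08 (adjusted p = 0.819).

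How small the collagen differences were can be read from their intervals. With the block, the 95% confidence interval of the average iron difference lay within 0.5 log2 units of 0, a 1.41-fold difference either way, for all 42 collagens, and so did that of the average macrophage difference. For all 107 members this held for 103 with iron, the exceptions being Adam12, Mmp3, Mmp10 and Mmp13, and for 104 with macrophages, the exceptions being Mmp3, Mmp10 and Mmp13. Without the block the counts were 102 and 104. Col13a1 in RAW against alone and Col1a1 in RAW_FAC against alone were the collagens whose interval reached past 0.5 in the 5 comparisons of 2 groups with the block. The intervals are not adjusted for the number of genes, and on genes near the low end of the array a small log2 difference can hide a larger one in RNA.

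**Figure D3:**
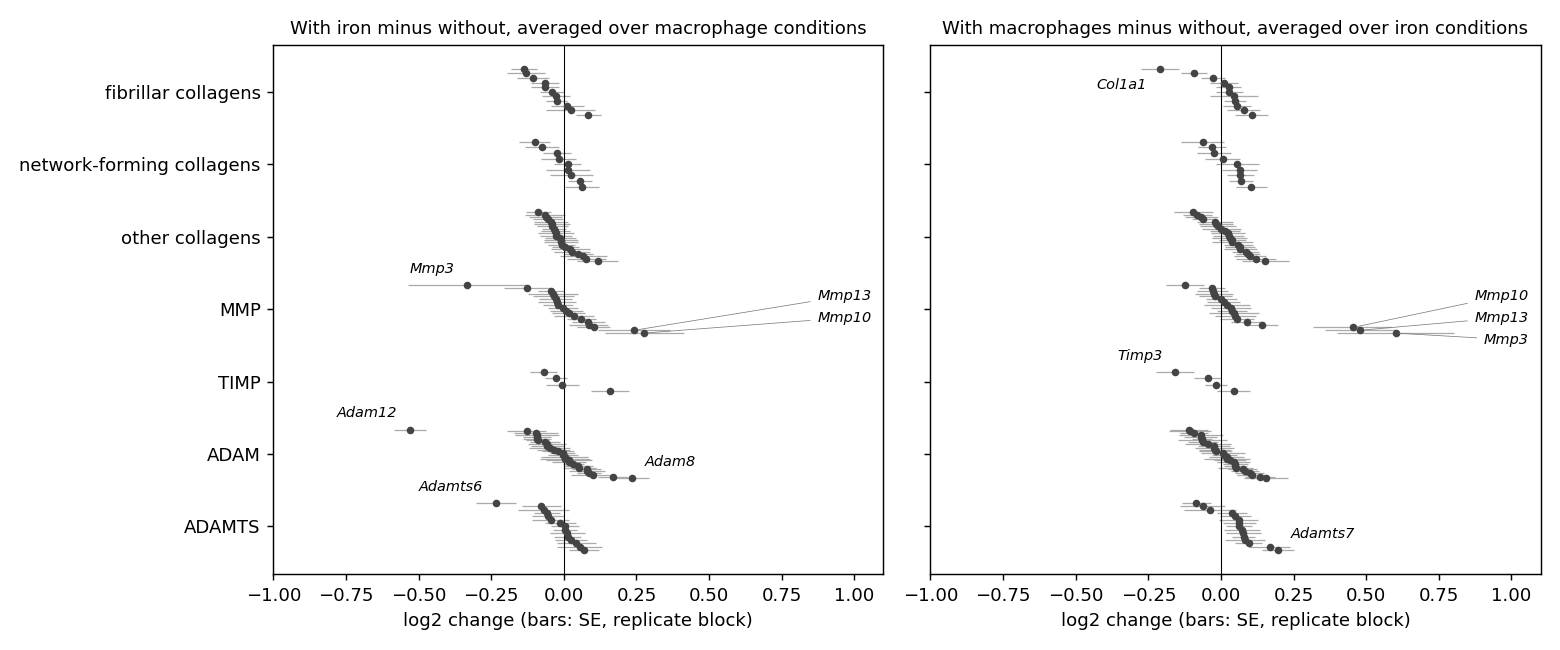
Log2 difference (horizontal axis) of each of the 107 members, grouped by family (vertical axis) and sorted within it, for iron (left) and macrophages (right), averaged over the other factor. Points are the differences and bars the SE with the replicate block. Adam12 lies alone at the left of the iron panel (-0.53), and Mmp10, Mmp13 and Mmp3 lie at 0.45 to 0.60 at the right of the macrophage panel, while all 42 collagens lie between -0.21 and 0.15 in both.

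The ADAMTS proteases all lay below the median of genes, and none passed. Adamts6 was read at 5.56, 5.61 and 5.25 in alone, 5.07, 5.25 and 5.22 in FAC, 5.71, 5.62 and 5.41 in RAW, and 5.29, 5.46 and 5.48 in RAW_FAC. It was lower with iron by -0.23 ± 0.07 in 5 of 6 pairs (adjusted p = 0.196) and higher with macrophages by 0.17 ± 0.07 in 6 of 6 (adjusted p = 0.684). Adamts7, which cleaves cartilage oligomeric matrix protein and thrombospondin, was read at 4.75, 4.91 and 4.72 in alone, 4.75, 4.75 and 4.93 in FAC, 4.91, 4.97 and 5.07 in RAW, and 4.80, 5.12 and 5.14 in RAW_FAC, a macrophage difference of 0.20 ± 0.06 above 0 in 6 of 6 pairs (adjusted p = 0.486). The aggrecanases Adamts4 and Adamts5 lay at 4.80 to 5.08 and 4.16 to 4.48, with average differences of -0.09 to 0.06. Over the 15 genes, 12 had a macrophage difference above 0, with a median of 0.06, beside 0.01 over all genes.

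**Figure D4:**
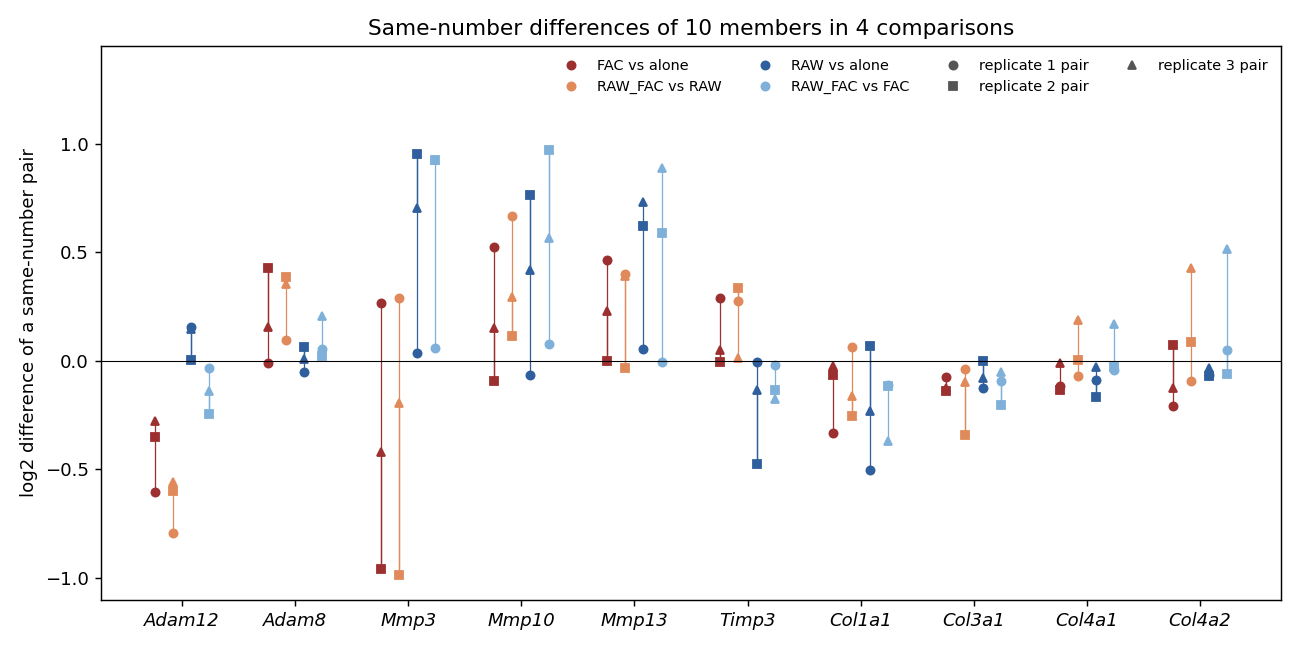
Log2 difference of each same-number pair of arrays (vertical axis) for 10 members (horizontal axis) in 4 comparisons, coloured by comparison, with circles, squares and triangles for replicates 1, 2 and 3. All 6 iron pairs of Adam12 lie between -0.79 and -0.28, while the iron pairs of Mmp3 run from -0.99 to 0.29 and the replicate 1 macrophage pairs of Mmp3, Mmp10 and Mmp13 lie near 0. Squares and triangles of Mmp3 coincide at RAW_FAC against FAC.

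Whether iron acted differently with macrophages was tested as the interaction, and 0 members passed with or without the block. The 3 largest interactions that went 1 way in all pairs were 0.26 ± 0.10 for Adamts10, 0.26 ± 0.11 for Col5a3 and 0.23 ± 0.15 for Col4a2 above 0. The Col5a3 value turned to -0.0115 with the mean of its probe sets. Below 0 they were -0.31 ± 0.11 for Col9a1, -0.31 ± 0.10 for Adam4 and -0.30 ± 0.12 for Col4a6, with adjusted p at 0.999 with the block for all 6. For 4 of 107 members, Adam5, Adamts1, Col4a5 and Col5a1, iron pairs were all on 1 side of 0 without macrophages and all on the other with them, against 2.37% of all genes. Adam5 went from below 0 to above 0 and the other 3 from above to below. These differences were small, at most 0.29 in a pair, and the interaction intervals are wide: 90 of 107 lay within 0.5 of 0 with the block.

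Across the set, the median differences were near 0. The median over 107 members was -0.01 for iron, with 46 above and 61 below 0, and 0.03 for macrophages, with 70 above and 37 below. Over all 18194 genes the medians were 0.00, with 8896 above and 9298 below 0, and 0.01, with 9787 above and 8407 below. Among the 57 members with several probe sets, all probe sets of a gene pointed the same way in 21 for iron and in 21 for macrophages.

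Genes that make, process and sense collagen were read from further lists. Of 24 genes for collagen folding and crosslinking, 0 passed without the block and 1 with it: Mia3, which loads procollagen into transport vesicles, with 9.49, 9.65 and 9.84 in alone, 9.72, 9.95 and 9.93 in FAC, 9.49, 9.61 and 9.76 in RAW, and 9.62, 9.94 and 10.08 in RAW_FAC. The arrays with iron lay above their same-number partners in 6 of 6 pairs, by 0.23 ± 0.04 on average (adjusted p = 0.0422 with the block, 0.713 without). The Mia3 call was lost for 10 of 12 left-out arrays and with same-number arrays averaged first (adjusted p = 0.332). With the block it was also lost with the mean of its probe sets (0.17, adjusted p = 0.114) and with its most variable probe set (0.24, adjusted p = 0.330). Plod2, a lysyl hydroxylase, was lower in 6 of 6 iron pairs at -0.29 ± 0.08 (adjusted p = 0.156), and P4ha2, a prolyl hydroxylase subunit, higher in 6 of 6 at 0.15 ± 0.04 (adjusted p = 0.120). Fkbp10 and Loxl2 are not analysed here. Of the 8 genes of propeptide cleavage, the 29 other matrix proteins, the 10 collagen receptors and the 14 genes of the plasminogen system and its inhibitors, 0 passed in the average iron, average macrophage or RAW_FAC against alone comparison in either fit. At an unadjusted p under 0.05 with the block, 2 of 8, 3 of 29, 1 of 10 and 1 of 14 did so for iron on average, against 12.3% of all genes. For the 24 genes of folding and crosslinking the count was 5. Of these 24, 4 were higher in 6 of 6 iron pairs (4.14% of all genes) and 1 lower (4%). Mrc2, an endocytic collagen receptor, was lower in 6 of 6 iron pairs at -0.17 ± 0.06 (adjusted p = 0.236), and Itga2, a collagen-binding integrin chain, higher in 6 of 6 macrophage pairs at 0.22 ± 0.05 (adjusted p = 0.357).

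Of 16 genes of TGF-beta signalling, the pathway best known for raising collagen output, Tgfb2 passed in the average iron difference with the block. An unadjusted p under 0.05 with the block was reached by 5 of the 16 for iron on average, against 12.3% of all genes. Tgfb2 was read at 8.15, 9.31 and 9.41 in alone, 8.60, 9.77 and 9.57 in FAC, 7.87, 9.07 and 9.26 in RAW, and 8.57, 9.74 and 9.49 in RAW_FAC. Replicate 1 was the lowest of each group, groups overlapped, and iron went with a higher value in 6 of 6 pairs, by 0.44 ± 0.06 (adjusted p = 0.0138 with the block, 0.851 without). The call was lost without replicate 2 of any group or replicate 1 of FAC (adjusted p 0.0510 to 0.0573), and with same-number arrays averaged first (0.200). With macrophages, 11 of the 16 genes lay below 0 (median -0.05), beside 8407 of all 18194 genes. In 6 of 6 pairs 5 were lower, against 2.8% of all genes and 4.36% of genes at or above the median of genes. Enrichment of the list was not tested. The 5 were picked out after their values were seen, and none passed. These were Ltbp1, which stores the latent factor in the matrix, at -0.15 ± 0.04 (adjusted p = 0.486 with the block), Tgfb2 at -0.13 ± 0.06, the receptors Tgfbr1 at -0.13 ± 0.05 and Tgfbr3 at -0.11 ± 0.05, and Ltbp3 at -0.06 ± 0.04. With iron, Smad7, the pathway's feedback inhibitor, was lower in 6 of 6 at -0.23 ± 0.05 (adjusted p = 0.0980). Of the 13 AP-1 and ETS factors, which are known regulators of MMP genes, 0 passed, and 3 had an unadjusted p under 0.05 for macrophages with the block, against 7% of all genes. Of these 13, 1 was higher in 6 of 6 macrophage pairs (3.09% of all genes) and 2 were lower (2.8%). Fos was lower with macrophages in 6 of 6 pairs at -0.26 ± 0.10 and Etv4 higher in 6 of 6 at 0.19 ± 0.07 (adjusted p = 0.589 and 0.604). Ets1 was the other lower one. Of the 18 ADAM substrates and partners 0 passed, with 4 at an unadjusted p under 0.05 for iron with the block against 12.3% of all genes, and neither did any macrophage, hepatocyte, epithelial or mesenchymal marker.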

How the data were processed

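Per the submitters' processing notes, the authors used affy and RMA to make the deposited log2 signals per probe set. Their versions are not given in the sources at hand. The values ran from 2.42 to 14.6, with array medians of 5.63 to 5.68, and were not rescaled. RMA shrinks differences near the low end. Of 45101 probe sets, 34958 had 1 gene symbol, and the 932 with several and 9211 with none were left out. Groups and replicate numbers come from the sample titles. No label calls the replicates separate cultures, and p-values then reflect array-to-array spread alone, which may be technical. The number of arrays limits the precision.

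Group means over the 12 arrays were modelled with limma 3.58.1 in R 4.3.3 (lmFit, contrasts, eBayes; Benjamini-Hochberg over 18194 genes), and again with the replicate number as a block. The scripts were tested on simulated data. Residuals of the 18 same-number array pairs correlated at 0.263 to 0.529, and those of the 36 other pairs at -0.349 to -0.0149, so the numbers, which come from the titles, were taken to pair the arrays. Same-number arrays of 1 iron condition correlated more (median 0.431) than those of different iron conditions (0.315), so errors of iron differences with the block may be too small. In replicate 1 the 18S ribosomal RNA control probe set lay at 12.515 in alone and 12.521 in RAW, against 13.152 in FAC and 13.09 in RAW_FAC. In replicate 2 it lay at 13.255, 13.266, 13.148 and 13.189 in the same order, and in replicate 3 at 12.937, 12.927, 12.893 and 12.604. Its bearing on the iron differences was not tested.

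Members and lists were chosen with earlier results of these data known. Named were Adam12, members past the threshold in either fit, the 3 largest per direction and comparison that went 1 way in every same-number pair, 28 fixed members, and of each list the genes past the threshold or up to 3 that went 1 way in every pair, with the 5 TGF-beta genes below 0 in every macrophage pair added after their values were seen. The RefSeq tables gave names for 107 of 107 members by Entrez identifier and promoters for 70. Alternatives were array weights, trend and robust moderation, a filter on low values, median centring, quantile normalization, other probe set rules, only the groups compared, a minimum difference and leaving out each array. Python 3.11.15, numpy 2.4.6, pandas 2.3.3 and matplotlib 3.10.9 made tables and plots.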

Additional observations from a re-analysis of the deposited data

How the results depend on the processing

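The replicate block and settings combined with it were what moved the counts of members past the threshold, from 0 to 1 lower in RAW_FAC against RAW, RAW_FAC against alone and the average iron difference, the member being Adam12 each time. This held with the block alone and with it together with array weights, trend and robust moderation, median centring, quantile normalization, the most variable probe set or a difference of at least 0.5, and for the average iron difference also the mean of probe sets. With trend and robust moderation and the block, 1 member, Adam8, was called higher in the average iron difference. Leaving out 1 array with the block gave 0 to 1 members lower in RAW_FAC against RAW and in RAW_FAC against alone and 1 to 1 in the average iron difference, and without the block 0 in each. Fitting only the 2 groups compared with the block gave 0, and the filter on low values leaves Adam12 out. The combinations with the block, other than array weights, the mean of probe sets and left-out arrays, and the averaging of same-number arrays were chosen after seeing the data. Single values that changed sign, none of them called, were Mmp13 in FAC against alone without replicate 2 of FAC (-0.0031, against up to 0.582 with other arrays left out), Mmp3 in RAW against alone without replicate 2 of RAW (-0.0183, up to 0.994), and Mmp10 in RAW_FAC against RAW without replicate 1 of RAW (-0.0429, up to 0.874) or replicate 2 of RAW_FAC (-0.0341). With the most variable probe set, with or without the block, Adam1b gave 0.123 in RAW_FAC against RAW and 0.0983 in RAW_FAC against FAC, and Adam19 0.0826 in RAW_FAC against FAC. The interaction of Col4a2 was -0.0033 without replicate 3 of RAW_FAC (up to 0.361), and that of Col5a3 -0.0115 with the mean of probe sets in both fits. Where no other value shows it, the cause was not tested. Of the other single-gene values under alternatives, 1895 kept their direction and side of the threshold and 68 passed where the fit without the block did not, for Adam12, Tgfb2 and Mia3. With 3 arrays a group, most members' low signal limits what a difference near 0 can show.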
